A study of Mus musculus with 10 samples.

Results

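The 38 genes described here are targets or reported targets of p53, 38 of the 35375 features in a table of read counts from mouse thymus. They were named by symbol and grouped by role into 14 genes of arrest and growth control, 12 of the death receptors and cell death, 6 of repair and 6 of metabolism and other roles. One of the 38, Psrc1, was chosen by its rise in the same libraries. Its values are given as a description with no test, and it stands in no count of members called. The search of promoter windows and the search for outlying wild-type libraries include it. The other members were also chosen with earlier results of these data known. Pvt1, a long non-coding RNA of the first group, matched no feature and has no value. The remaining 36 members were all measured.

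Gene expression was measured by total RNA sequencing of the thymus of C57BL/6J mice, 3 days after birth, 1 library per mouse. Usp7, also called HAUSP, which encodes a deubiquitinating enzyme, was deleted in hematopoietic cells, from both alleles (homozygous KO, n = 3) or from 1 allele (heterozygous KO, n = 3), and the wild type had n = 4. The wild-type group joins 2 mice with cre, the recombinase that cuts out marked DNA, and 2 without it, and no label states which library is which. The names of the wild-type libraries do fall into 2 and 2 (wt.wt in replicates 1 and 2, a single wt in replicates 3 and 4), but none mentions cre. The column names of replicates 3 and 4 also add the word het. The driver of cre and the part of Usp7 that it removes are not given in the sources used here. The knockout was restricted to blood-forming cells, so stromal cells of the thymus would keep the gene.

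p53, encoded by Trp53, is a transcription factor that is kept at a low level by MDM2, a ubiquitin ligase, and that accumulates when a cell is stressed or its DNA is damaged. It then binds a pair of short half-sites near its target genes and raises genes that halt the cell cycle, start cell death, repair DNA or adjust metabolism. Thymocytes are known for a p53 response that leads readily to cell death. USP7 removes ubiquitin from both MDM2 and p53.

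Promoter windows of the members were examined first, since p53 binds its targets at half-sites. The members themselves were named by symbol and not chosen by such sites. RefSeq windows on GRCm38.p6, from 250 bases before to 50 bases after a transcription start, were found for 28 of the 38 members. The p53 half-site consensus, a palindromic decamer read alike on both strands, stood without a mismatch in 8 of these 28 genes (28.6%), compared with 9.55% of the 27025 genes with a window and 8.36% of the 32851 windows. A pair of half-sites at most 13 bases apart, with at most 2 mismatches in all and the central C and G kept, stood in 3 members (10.7%), compared with 4.71% of all genes and 4.09% of all windows. The 3 members were Cdkn1a and Ccng1, whose levels rose, and Sesn1, whose level did not pass the test, and their sequences are printed to show what such a pair looks like in each case. Each is the 250 bases before a RefSeq start, 5′ to 3′ on the strand of the gene, with the pair of shortest spacer in capitals.

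Cdkn1a, chr17:29090729-29090978, + strand: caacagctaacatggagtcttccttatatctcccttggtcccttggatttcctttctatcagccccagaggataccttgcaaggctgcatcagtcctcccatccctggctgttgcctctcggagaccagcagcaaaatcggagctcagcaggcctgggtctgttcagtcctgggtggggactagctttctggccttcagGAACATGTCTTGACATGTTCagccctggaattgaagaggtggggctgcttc
Ccng1, chr11:40755287-40755536, - strand: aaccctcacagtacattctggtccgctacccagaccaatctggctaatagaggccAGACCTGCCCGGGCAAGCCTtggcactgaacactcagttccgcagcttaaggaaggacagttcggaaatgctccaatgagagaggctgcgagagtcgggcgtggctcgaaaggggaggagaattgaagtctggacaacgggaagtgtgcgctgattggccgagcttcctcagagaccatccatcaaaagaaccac
Sesn1, chr10:41887189-41887438, + strand: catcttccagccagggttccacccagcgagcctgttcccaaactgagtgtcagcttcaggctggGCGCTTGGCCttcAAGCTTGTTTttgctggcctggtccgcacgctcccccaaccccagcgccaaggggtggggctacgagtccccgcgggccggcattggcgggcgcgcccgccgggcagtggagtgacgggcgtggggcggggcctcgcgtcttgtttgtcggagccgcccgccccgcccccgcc

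In Cdkn1a the marked pair lay at -51 to -32 from this start, 1 of 2 starts listed for the gene, with 1 mismatch and no base between the half-sites. The same window holds a second pair, left in lower case where it is not shared: a half-site at -73 to -64 stood 12 bases before the first marked one, and both matched the consensus without a mismatch. In Ccng1 the marked pair lay at -195 to -176, with 1 mismatch and no spacer, and its last half-site also paired with one at -200 to -191 (2 mismatches, spacer of 5 bases). In Sesn1 it lay at -186 to -164, with 2 mismatches and a spacer of 3 bases, and its last half-site also paired with one at -158 to -149 (2 mismatches, spacer of 5 bases). A single half-site without a partner stood in Aen, Ei24, Polk, Ppm1d and Abhd4. Such matches are letters in a window, and binding was not measured.

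The homozygous libraries held 92.3 to 122.4 M counts, the heterozygous ones 90.5 to 97.4 M and the wild types 39.8 to 86.4 M. Wild type replicates 1 and 2 held 39.8 and 41.0 M, and replicates 3 and 4 held 86.4 and 81.0 M. Levels are given in CPM, counts relative to the library total and scaled by TMM, and a count of 0 allows 3 counts, which came to between 0.0245 and 0.0753 CPM by library (counting error only). Levels of Usp7 in homozygous KO were 303, 422 and 408 CPM, in heterozygous KO 472, 516 and 516 CPM, and in wild type 676, 670, 594 and 589 CPM. Every homozygous library was thus below every heterozygous one, and every heterozygous one below every wild type, the latter as in 4.27% of all tested features. Among the wild types, replicates 3 and 4 had the lower values, 594 and 589 CPM. The fall in homozygous KO was -0.74 ± 0.11 (SE) on the log2 scale (edgeR adjusted p = 0.000525), and in heterozygous KO against wild type the value was -0.34. The thymocyte label fitted the markers, with Rag1 at 3491 ± 156 CPM in homozygous KO and 6300 ± 444 CPM in wild type (SD, n = 3 and 4).

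Against wild type, homozygous KO had 19 of the 36 members higher and 1 lower, and 16 did not pass the test (edgeR quasi-likelihood test, Benjamini-Hochberg adjusted p under 0.05 over 19511 tested features). The higher members were 52.8% of the 36, beside 12.5% of all tested features that were higher, 13.2% that were lower and 25.8% called in either direction. The median log2 fold change of the 36 members was 0.48, against -0.01 over all features. Since the members were chosen with earlier results of these data known, both contrasts are descriptions and no test of the list. With libraries scaled by their totals alone, 17 members were higher and 2 lower, while the share of higher features among all called ones went from 48.6% to 29%. Of the 19, 11 rose more than 2-fold and 6 more than 4-fold. Eda2r passed the filter on low counts only through the homozygous libraries, and without it 19 of 35 members were called. Gdf15 exceeded the cutoff in 3 homozygous, 2 heterozygous and 0 wild-type libraries. It too needed the homozygous libraries to pass, and it stays in these counts. In 21 members every homozygous library lay above every wild-type library, as in 16.3% of all features, and in 1 member every one lay below, as in 16.4%. In bulk tissue, fewer cells of a type and less RNA per cell cannot be told apart. Replicates are separate mice.

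**Figure D1:**
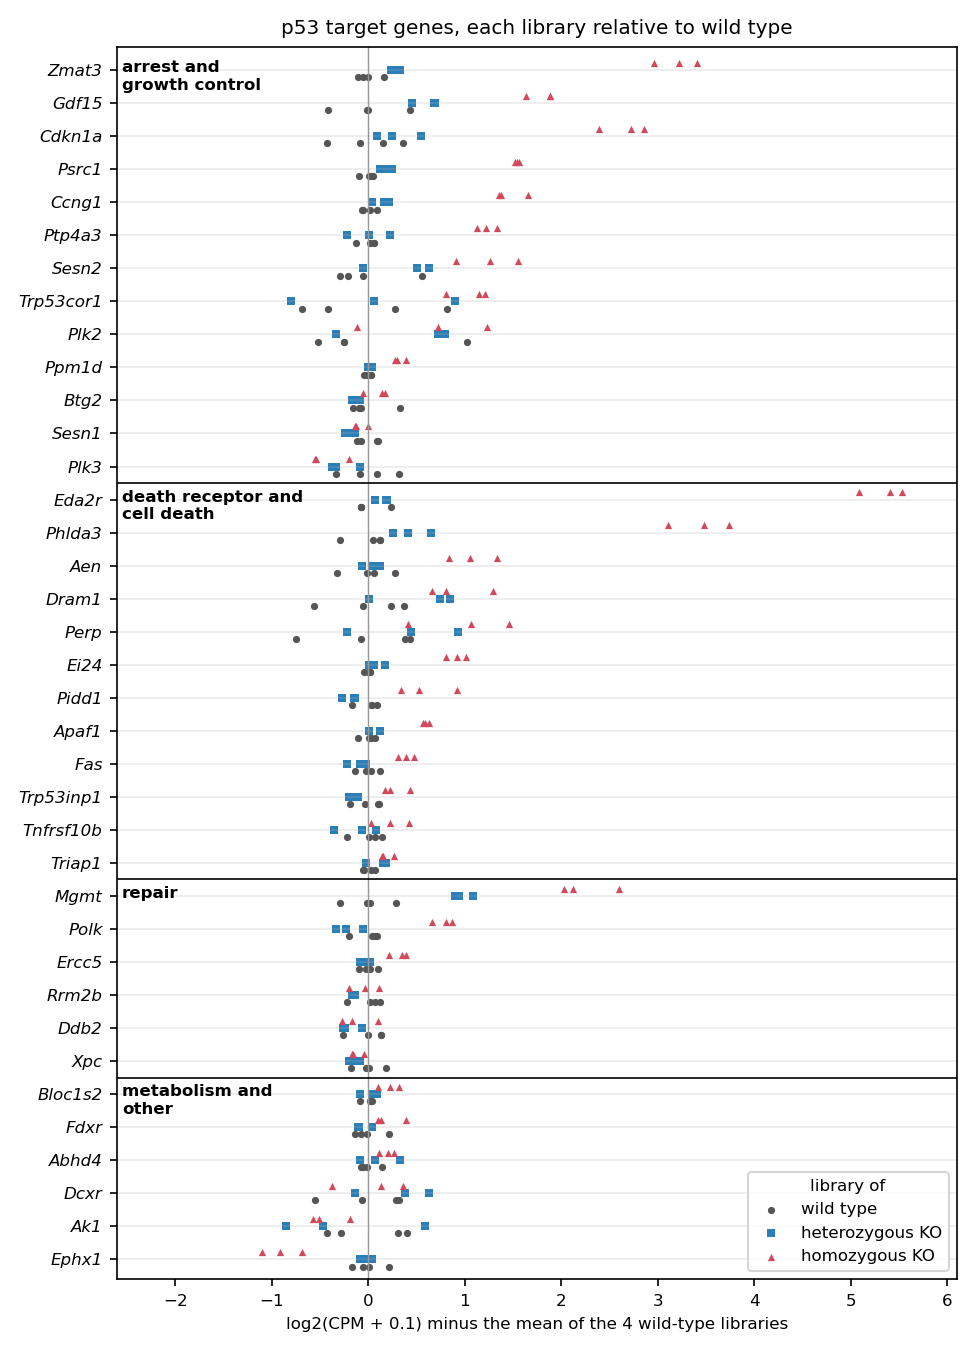
Each row is a p53 target gene and each point a library, placed by log2(CPM + 0.1) minus the mean of the 4 wild-type libraries, with triangles for homozygous KO (n = 3), squares for heterozygous KO (n = 3) and circles for wild type (n = 4). Lines divide the 4 groups of roles; the triangles of 21 tested members lie to the right of all circles, those of Ephx1 lie to the left, and Psrc1 is drawn as a description.

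Of the 12 tested genes of arrest and growth control, 7 rose in homozygous KO (58.3%, beside 12.5% of all tested features). None fell (beside 13.2%) and 5 did not pass the test. Zmat3, an RNA-binding protein of the p53 pathway, was at 199.8, 271 and 239 CPM in homozygous KO, 32.1, 30.2 and 31.8 CPM in heterozygous KO, and 23.7, 24.7, 28.6 and 25.5 CPM in wild type. The homozygous libraries stood far above the other 7, and the heterozygous ones lay in a narrow band just above the wild types. The rise was 9.22-fold (log2 3.20 ± 0.10 SE, edgeR adjusted p = 2.47e-08), and 0.379% of all tested features had a larger log2 fold change. Cdkn1a encodes p21, the inhibitor of cyclin-dependent kinases that halts the cell cycle. Its level was 46.0, 42.1 and 33.5 CPM in homozygous KO, 6.72, 7.45 and 9.20 CPM in heterozygous KO, and 4.64, 5.92, 6.99 and 8.08 CPM in wild type. Heterozygous and wild-type libraries overlapped, and all 3 homozygous ones lay above them. The rise was 6.28-fold (log2 2.65 ± 0.18 SE, edgeR adjusted p = 3.74e-06).

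Ccng1, cyclin G1, was at 174, 215 and 177 CPM in homozygous KO, 70.2, 76.4 and 79.0 CPM in heterozygous KO, and 65.2, 72.8, 69.0 and 65.7 CPM in wild type. Again the heterozygous and wild-type ranges overlapped and the homozygous one was apart, 2.77-fold higher than wild type (log2 1.47 ± 0.08 SE, edgeR adjusted p = 8.45e-07). With Cdkn1a it is 1 of the 2 rising genes with paired half-sites in the printed windows. Ptp4a3, a phosphatase, rose 2.34-fold, from 142 ± 8.44 to 333 ± 24.0 CPM (SD, n = 4 and 3, edgeR adjusted p = 7.46e-06). Sesn2, a stress-induced sestrin that restrains mTORC1, rose 2.34-fold (9.55 ± 2.82 to 22.4 ± 4.90 CPM, edgeR adjusted p = 0.0027). Ppm1d encodes WIP1, a phosphatase that turns the p53 response off, and its rise was small, 1.25-fold (edgeR adjusted p = 0.00103). Gdf15, a secreted stress cytokine, was scarce, with 131 counts summed over the homozygous and 14 over the wild-type libraries, a ratio of CPM of 7.72 (95% exact interval 4.44 to 14.5 for counting error, edgeR adjusted p = 0.00148). It would not have passed the filter on low counts without the homozygous libraries.

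The other 5 genes of this group did not pass the test. They were the antiproliferative gene Btg2 (log2 0.08), the polo-like kinases Plk2 (0.57) and Plk3 (-0.45), the sestrin Sesn1 (-0.09) and Trp53cor1, the long non-coding RNA also called lincRNA-p21 (1.05 ± 0.48 SE). Plk3 shares exon sequence with a gene on the other strand, and its counts are uncertain if strand was not used in counting. It passed as lower without wild type replicate 1 (adjusted p = 0.0439), and Trp53cor1 passed as higher without wild type replicate 4 (0.0495). The 2 sestrins therefore had different calls, and the difference between them was not tested. Psrc1, which binds microtubules, was at 46.2, 44.8 and 45.3 CPM in homozygous KO, 17.6, 18.5 and 17.0 CPM in heterozygous KO, and 14.5, 16.1, 15.7 and 15.9 CPM in wild type. These values were known when Psrc1 was chosen.

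**Figure D2:**
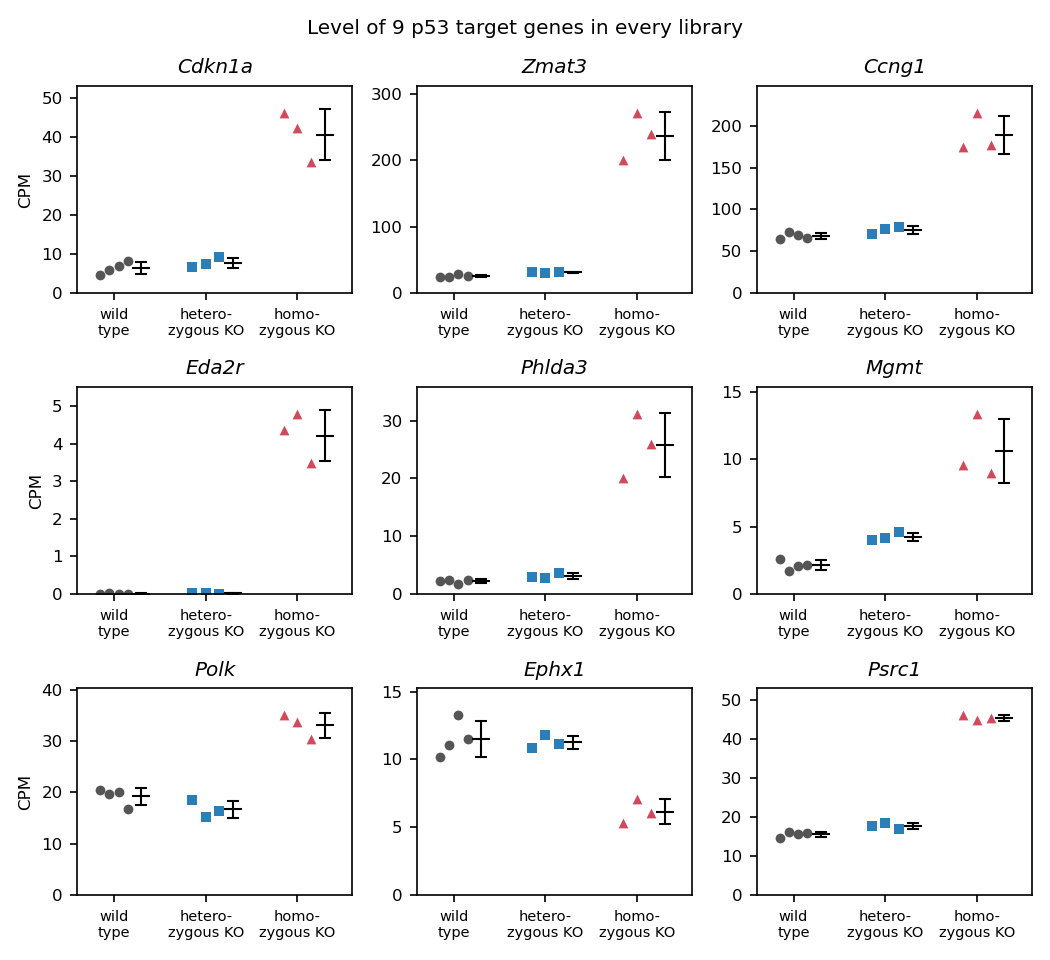
Each panel shows the level of a gene in CPM on a linear axis from 0, with 1 point per library and, beside the points, the mean with its SD (n = 4 wild type, 3 heterozygous KO, 3 homozygous KO). Homozygous KO stands apart from the others in all 9 panels, above them in 8 and below them in Ephx1. Heterozygous KO lies between the other groups, without overlap, in Mgmt, Zmat3, Phlda3 and Psrc1.

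Of the 12 genes of the death receptors and cell death, 9 rose (75%, beside 12.5% of all tested features) and 3 did not pass the test. Without Eda2r, 8 of 11 rose. Eda2r, a receptor of the TNF receptor family, was at 4.37, 4.79 and 3.48 CPM in homozygous KO, at 0.0200, 0.0209 and 0.0109 CPM in heterozygous KO, and in wild type at 0.0241 CPM in 1 library and at 0 in the other 3. It was close to silent in 7 libraries and present in 3. Its summed counts were 1308 in homozygous KO, 5 in heterozygous KO and 1 in wild type, a ratio of CPM of 1079 against wild type (95% exact interval 193 to 42650, counting error only) and of 244 against heterozygous KO (104 to 754). Phlda3 encodes an inhibitor of AKT signalling. It was at 20.1, 31.1 and 26.0 CPM in homozygous KO, 3.02, 2.71 and 3.59 CPM in heterozygous KO, and 2.33, 2.46, 1.81 and 2.46 CPM in wild type. The homozygous range was far from the others, and the heterozygous libraries lay slightly above the wild types. Its rise of 11.4-fold (log2 3.51 ± 0.18 SE, edgeR adjusted p = 5.1e-07) was exceeded by 0.292% of all tested features.

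Fas, the classical death receptor of lymphocytes, rose only 1.31-fold, from 36.8 ± 2.77 to 48.2 ± 2.68 CPM (edgeR adjusted p = 0.00374). Tnfrsf10b, the receptor for TRAIL, was at 4.598 ± 0.65 against 3.91 ± 0.42 CPM and did not pass the test (edgeR adjusted p = 0.322). Of the 3 receptors, Eda2r thus had by far the largest ratio. Aen, a p53-induced nuclease, rose 2.11-fold (edgeR adjusted p = 0.000273), and Ei24, a membrane protein of the endoplasmic reticulum, rose 1.90-fold from 31.0 ± 0.68 to 58.7 ± 4.21 CPM (edgeR adjusted p = 5.36e-06). Apaf1, the core of the apoptosome, rose 1.51-fold (118 ± 6.19 to 178 ± 3.65 CPM, edgeR adjusted p = 2.25e-05), and Pidd1, a death-domain adaptor, rose 1.53-fold (edgeR adjusted p = 0.00331).

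A pair of further calls in this group was close to the threshold. Dram1, a lysosomal regulator of autophagy, was at 0.877, 0.978 and 1.42 CPM in homozygous KO and at 0.319, 0.698, 0.630 and 0.496 CPM in wild type (log2 1.01 ± 0.33 SE, edgeR adjusted p = 0.0423). Without homozygous KO replicate 2 or 3 its adjusted p was 0.0677 or 0.16, and without wild type replicate 1, 3 or 4 it was 0.0956, 0.0568 or 0.0826. Trp53inp1, which assists p53 in the nucleus, was the most abundant member per length and rose 1.21-fold (edgeR adjusted p = 0.0319); the adjusted p was 0.125 without homozygous KO replicate 2 and 0.0774 or 0.0609 without wild type replicate 2 or 4. Both lost the call when libraries were scaled by their totals alone, where the adjusted p was 0.0629 for Dram1 and 0.138 for Trp53inp1. Perp, a membrane protein (log2 0.99 ± 0.36 SE, edgeR adjusted p = 0.0649), and Triap1 (0.19 ± 0.08 SE, edgeR adjusted p = 0.0941) did not pass the test, and Perp passed it without homozygous KO replicate 1 (adjusted p = 0.0331).

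**Figure D3:**
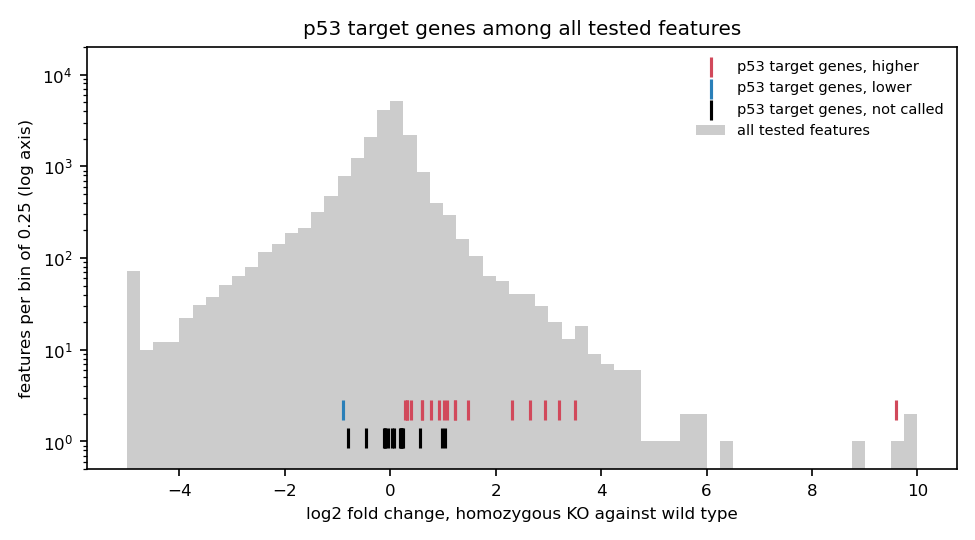
Grey bars count all 19511 tested features by the log2 fold change of homozygous KO over wild type, in bins of 0.25 on a log axis, with features beyond either end counted in the end bin; ticks mark the 36 tested members other than Psrc1 as higher (19), lower (1) or not called (16). The higher members spread from 0.28 upward, the lower one is Ephx1 at -0.90, and the tick near 9.6 is Eda2r, whose fitted value depends on the prior count.

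Of the 6 repair genes, 3 rose (50%, beside 12.5% of all tested features) and 3 did not pass the test. Mgmt, which removes alkyl groups from guanine, was at 9.56, 13.4 and 8.98 CPM in homozygous KO, 4.03, 4.18 and 4.61 CPM in heterozygous KO, and 2.603, 1.71, 2.10 and 2.15 CPM in wild type. The 3 groups did not overlap and stood in the order of the number of knocked-out alleles, as they also did in Zmat3, Phlda3 and Gdf15. The rise in homozygous KO was 4.97-fold (log2 2.31 ± 0.18 SE, edgeR adjusted p = 7.46e-06), and 0.958% of all features exceeded it. Polk, a translesion DNA polymerase, was at 35.1, 33.6 and 30.4 CPM in homozygous KO, 18.5, 15.3 and 16.4 CPM in heterozygous KO, and 20.4, 19.7, 20.2 and 16.8 CPM in wild type. Only the homozygous range stood apart here, 1.72-fold above wild type (log2 0.78 ± 0.09 SE, edgeR adjusted p = 0.000164). Ercc5, an endonuclease of nucleotide excision repair, rose 1.25-fold (edgeR adjusted p = 0.00636). Xpc and Ddb2, which recognise damage in the same repair pathway, were at log2 values of -0.13 and -0.11, and Rrm2b, the p53-controlled subunit of ribonucleotide reductase, was at -0.04. Ddb2 shares exon sequence with a gene on the other strand.

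None of the 6 genes of metabolism and other roles rose, beside 12.5% of all features, and 1 fell (16.7%, beside 13.2%). Ephx1, microsomal epoxide hydrolase, was at 5.30, 7.10 and 6.04 CPM in homozygous KO, 10.8, 11.8 and 11.2 CPM in heterozygous KO, and 10.2, 11.1, 13.3 and 11.5 CPM in wild type. All homozygous libraries lay below the other 7, with a log2 change of -0.90 ± 0.13 (SE, edgeR adjusted p = 0.000437), or 0.534 of the wild-type level. Bloc1s2 was at 26.5 ± 2.03 against 22.8 ± 0.86 CPM, without overlap, and narrowly missed the threshold (edgeR adjusted p = 0.0506). Without homozygous KO replicate 1 it passed, at an adjusted p of 0.029. Fdxr, the mitochondrial ferredoxin reductase, Abhd4, a lipase, and Dcxr, a carbonyl reductase, had log2 values of 0.21, 0.20 and 0.03. Ak1, adenylate kinase 1, was at or below 0.147 CPM on average in every group.

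Per length, levels ranged widely among the members in wild type. Trp53inp1 was at 127 and Btg2 at 102 CPM per kb of exon, followed by Ccng1 at 19.4 CPM per kb. Cdkn1a was at 1.80, Zmat3 at 2.24 and Phlda3 at 1.45 CPM per kb in wild type, in the lower part of this order. In homozygous KO the same 3 were at 11.4, 20.7 and 16.5 CPM per kb, which placed Zmat3 beside Ppm1d and Apaf1, both at 19.8 CPM per kb. Ccng1 was then at 53.8 and Ptp4a3 at 35.6 CPM per kb. Exon lengths came from a newer annotation than the counts, so these levels are approximate.

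In heterozygous KO against wild type, none of the 36 members passed the test, beside 0.0154% of all features (3 of 19511). The lowest adjusted p was 0.354, for Mgmt (edgeR). At an unadjusted p under 0.05 there were 5 members, Zmat3, Gdf15, Phlda3, Mgmt and Sesn1, beside 7.28% of all features. Every heterozygous library lay above every wild type in Zmat3, Gdf15, Phlda3 and Mgmt, as in 4.41% of features, and below in Sesn1, as in 4.27%. Mgmt had a log2 value of 0.996 ± 0.18 (SE), Phlda3 0.46 ± 0.17, Zmat3 0.29 ± 0.10, Gdf15 1.23 ± 0.53 and Sesn1 -0.19 ± 0.07. Cdkn1a was at 0.27 ± 0.18 and Ccng1 at 0.14 ± 0.08, with overlapping libraries. With DESeq2, 1 member passed, Mgmt, at an adjusted p of 8.8e-05, beside 0.325% of all features.

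**Figure D4:**
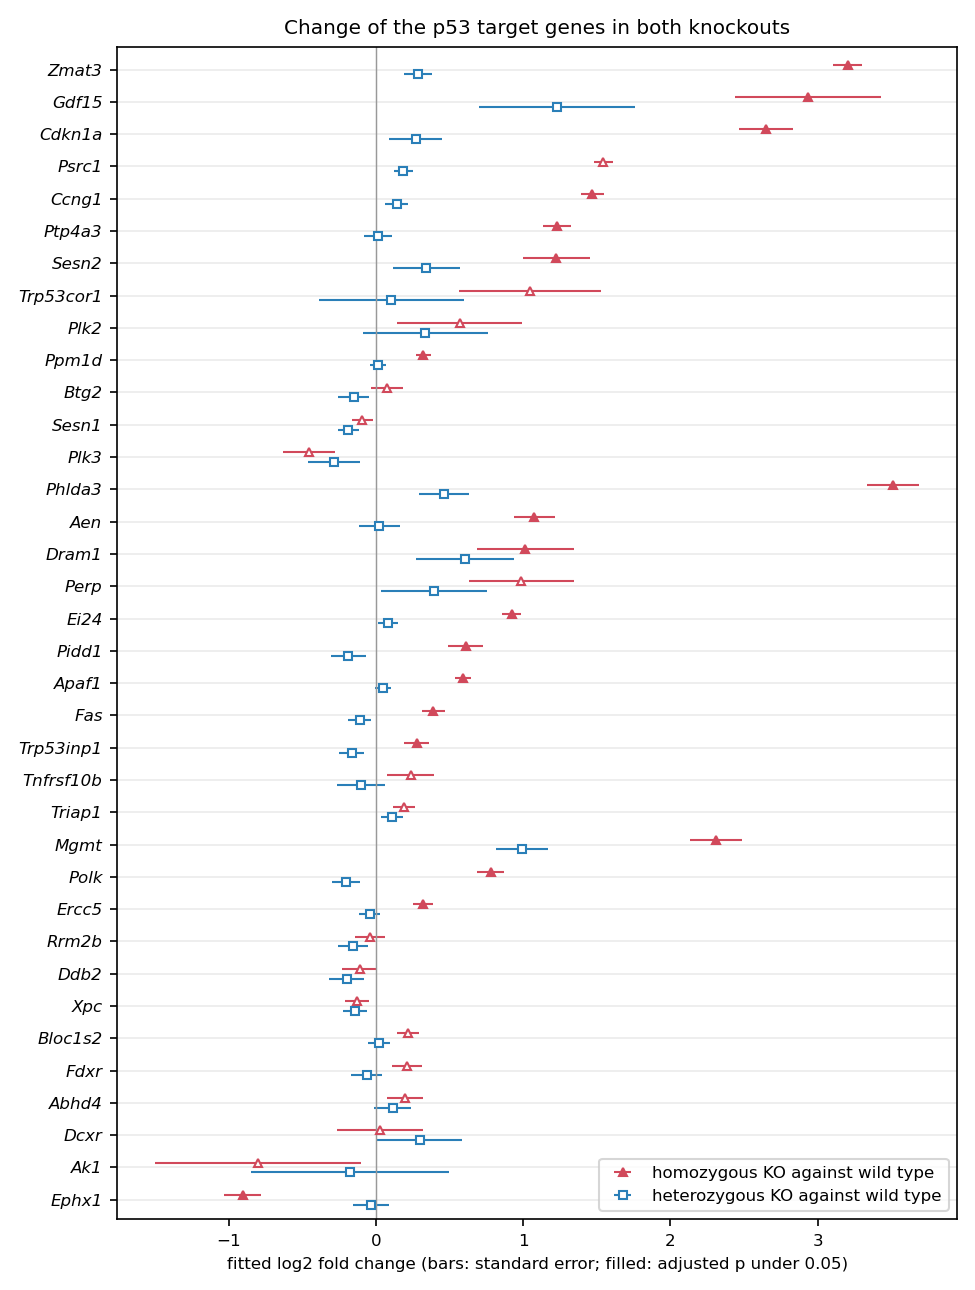
For each member other than Eda2r, the fitted log2 fold change against wild type is drawn with its standard error, as a triangle for homozygous KO and a square for heterozygous KO, and filled symbols passed the test (Psrc1 is drawn unfilled, as it was not tested). Filled triangles lie at 0.28 or above except Ephx1 at -0.90, and no square is filled.

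The homozygous and heterozygous knockouts were also compared directly. Of the 36 members, 18 were higher and 1 was lower in homozygous KO, beside 7.63% and 9.5% of all features. The log2 difference was 2.92 ± 0.11 (SE) for Zmat3 (edgeR adjusted p = 1.43e-07), 3.05 ± 0.19 for Phlda3 (3.39e-06), 2.38 ± 0.20 for Cdkn1a (2.1e-05) and 1.33 ± 0.09 for Ccng1 (4.07e-06). Mgmt differed by 1.32 ± 0.19 (edgeR adjusted p = 0.000688), and Ephx1 by -0.87 ± 0.13 (edgeR adjusted p = 0.00107). Dram1 did not pass (0.41 ± 0.34, edgeR adjusted p = 0.493), where its heterozygous libraries reached 1.01 CPM. This comparison shares its homozygous libraries with the first, so the counts are not independent.

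The genes that control p53 were described apart from its targets. Trp53 itself was at 185, 180.3 and 162 CPM in homozygous KO, 158, 159.6 and 159 CPM in heterozygous KO, and 153, 164, 173 and 153 CPM in wild type. The ranges of homozygous KO and wild type overlapped, and the difference of 0.13 ± 0.06 (SE, log2) did not pass the test (edgeR adjusted p = 0.143). Mdm2, both the ligase that degrades p53 and a p53 target, was at 140.2, 149 and 150.1 CPM in homozygous KO, 113, 121.7 and 122.4 CPM in heterozygous KO, and 123, 119, 121 and 133 CPM in wild type. All homozygous libraries lay above the others, by 1.18-fold against wild type (log2 0.24 ± 0.05 SE, edgeR adjusted p = 0.00793). The call was lost with scaling by library totals alone (adjusted p = 0.0783). It was also lost when only those 2 wild-type libraries were used whose titles hold 1 wt word (0.0934).

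Of 15 tested regulators of p53, Mdm2 included, 5 were higher (33.3%, beside 12.5% of all features) and 2 lower (13.3%, beside 13.2%) in homozygous KO than in wild type. Cdkn2a, whose locus encodes the MDM2 inhibitor ARF and the kinase inhibitor p16, rose from 0.0978 ± 0.0855 to 1.07 ± 0.15 CPM. It needed the homozygous libraries to pass the filter on low counts, whose cutoff was 0.109 CPM. Its call is thus not independent of its rise, and it stays in the count of 5. Its highest heterozygous level was 0.0762 CPM and its wild-type median 0.0752 CPM. The kinase gene Hipk2 (log2 0.28), the deacetylase gene Sirt1 (0.29) and the deubiquitinase gene Usp10 (0.25) rose slightly, and all 3 calls were lost with library totals alone. Without homozygous KO replicate 2 the adjusted p was 0.0787 for Hipk2 and 0.0563 for Sirt1, and for Hipk2 it was 0.0775 without homozygous KO replicate 3 and 0.0552 without wild type replicate 4. Usp7 and Trp53bp1 (log2 -0.26 ± 0.06 SE, edgeR adjusted p = 0.00843) were the lower ones. The share of 13.3% thus includes Usp7, the gene deleted by design. Trp53bp1 shares 2130 bases of exon with Tubgcp4 on the other strand, so its count is uncertain in the same way as that of Plk3. Mdm4 was at 0.05, and Trp73 was too low to test.

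A further list of 11 p53 targets outside the 38, also written with results of these data known, had 10 tested members. Of these, 7 rose in homozygous KO (70%, beside 12.5% of all tested features) and none fell (beside 13.2%). The risen genes included 3 of the mitochondrial death pathway. Pmaip1, which encodes NOXA, rose from 7.16 ± 0.75 to 49.1 ± 4.34 CPM (log2 2.78 ± 0.16 SE, edgeR adjusted p = 1.24e-06). Bbc3, which encodes PUMA, rose from 12.98 ± 3.91 to 62.95 ± 24.9 CPM (2.27 ± 0.29, edgeR adjusted p = 0.000214), and Bax rose from 26.3 ± 0.46 to 67.3 ± 7.29 CPM (1.36 ± 0.08, edgeR adjusted p = 1.79e-06). Gtse1 (0.97), Ddit4 (0.77), Slc19a2 (0.65) and Gadd45a (0.40, edgeR adjusted p = 0.0394) also rose, while Tigar, Sfn and Steap3 did not pass the test. Gadd45a shares 337 bases of exon, of 1764, with a gene on the other strand. Its call was lost in 12 of 16 alternatives. Among them were the fits without homozygous KO replicate 2 or 3 (adjusted p = 0.134 or 0.0781) and without wild type replicate 1, 3 or 4 (0.0743, 0.0829 or 0.0747). None of either list passed in heterozygous KO against wild type.

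**Figure D5:**
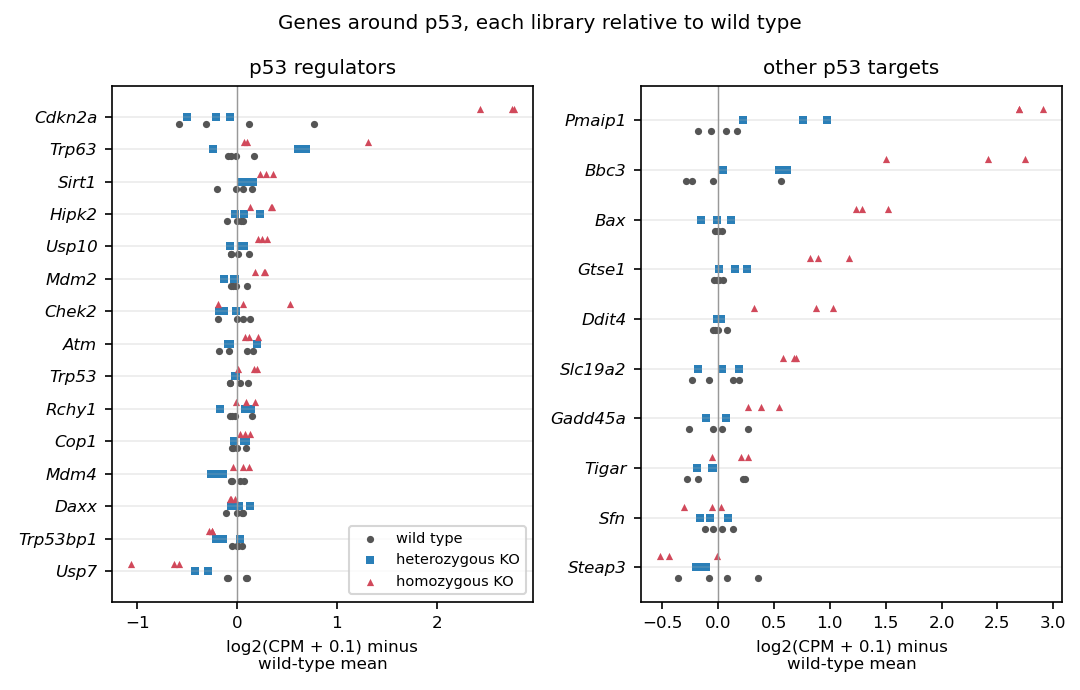
Points are libraries placed by log2(CPM + 0.1) minus the wild-type mean, for 15 regulators of p53 on the left and 10 further p53 targets on the right, with triangles for homozygous KO, squares for heterozygous KO and circles for wild type. Trp53 sits near 0 in all groups, while Pmaip1, Bbc3 and Bax stand to the right in homozygous KO.

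Markers of cell types also differed between homozygous KO and wild type. The counts below stand beside 12.5% of all tested features that were higher and 13.2% that were lower. The summed level of 8 double-positive thymocyte markers was 7093 to 7370 CPM in homozygous KO, 8953 to 9550 CPM in heterozygous KO and 9040 to 10370 CPM in wild type. Of the 8, Rag1 and Dntt fell, Cd8a rose (1260 ± 99.3 to 1511 ± 57.4 CPM, SD) and 5 did not pass the test, and most of the lower sum came from Rag1. For 5 mature single-positive markers, of which 4 fell, the sums were 146 to 198, 264 to 278 and 246 to 350 CPM, and 4 of 6 double-negative markers fell. Neutrophil markers, of which 5 of 6 rose, summed to 51.5 to 282, 5.87 to 11.5 and 7.36 to 22.6 CPM, and 4 of 6 fibroblast markers rose, with sums of 10.4 to 32.3, 4.40 to 6.24 and 4.25 to 12.9 CPM. Among the others, 4 of 6 myeloid and 4 of 5 B cell markers fell, 1 of 5 erythroid markers rose, thymic epithelium had 1 of 6 in each direction and none of 5 endothelium markers passed the test. The part of these shifts in the changes of the p53 target genes was not tested.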

How the data were processed

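Total RNA, depleted of ribosomal RNA, was sequenced from the thymus of 10 mice, and the deposited table holds raw read counts per gene, not normalized, made by the authors. The submitters' processing notes name CASAVA, STAR 2.4.1d, HTSeq 0.6.1p1 and mm9 (NCBIM37), while the study's methods describe a BWA-based pipeline; the strand setting and annotation release are not given in the sources used here. Groups came from the sample titles. The column names of 2 wild types, replicates 3 and 4, add the word het, and the title was kept.

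Symbols and exon lengths were taken from GENCODE on GRCm38, where 30204 of 34467 Ensembl identifiers were found; features without one took 1.74% to 2.29% of counts and stayed in the totals and the fit. In R 4.3.3, all 10 libraries were scaled by TMM, filtered with filterByExpr and fitted together in edgeR 4.0.16 with its quasi-likelihood test, with Benjamini-Hochberg adjustment. The SE is the absolute log2 fold change divided by the square root of F. Alternatives were library totals alone, no filter, the compared groups only, a replicate block, an animal-number block, Xist as a covariate, each library left out, the wild types with 1 or 2 wt words in the title, and DESeq2 1.42.0.

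The members and lists were chosen with earlier results of these data known. Values in every library are given for Cdkn1a, Ccng1, Psrc1, Trp53, Mdm2 and, within each group of roles, the 2 largest called rises and falls whose average log2 CPM was -2 or more; other values per library were chosen after they were seen.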

Additional observations from a re-analysis of the deposited data

Results flagged for a closer look

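In 3 of 37 genes tested in the 4 wild-type libraries, 1 library stood apart from the other 3, and chance alone gives about 1 in 20 such groups. Btg2 was at 347 CPM in wild type replicate 3, with the others between 248 and 263 CPM. Plk2 was at 11.3 CPM in wild type replicate 4, with the others between 3.81 and 4.62 CPM. Eda2r was at 0.0241 CPM in wild type replicate 2, a single count, with the others at 0. A lone count among zeros is always flagged by this rule, so the rate of 1 in 20 does not apply to Eda2r.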

How the results depend on the processing

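In homozygous KO against wild type, 18 to 23 members were called under every alternative and 18 to 22 with 1 library left out (20 as reported). Of all tested features, 13.4% to 27.2% were called under the alternatives and 20.1% to 25.5% with 1 library left out. In homozygous against heterozygous KO the count was 17 to 19, and 17 to 18 with 1 library left out. All features called there ranged from 10.8% to 21.7%, and from 10.8% to 15% with 1 library left out. For heterozygous KO and wild type the count was 0 under every edgeR alternative, beside 0.01% to 0.031% of all features. With DESeq2 it was 1, beside 0.325%. Same-numbered libraries of different groups correlated at -0.10 to 0.23. Differently numbered libraries were not correlated for comparison, so this cannot tell whether replicate numbers pair the samples. With the replicate block 23 members were called, beside 25.3% of all features. With library totals alone, 29% of all called features were higher against 48.6% with TMM. Of 1165 log2 fold changes recomputed for single genes, 1080 kept direction and call, 46 lost the call, 17 gained it and 22 changed sign, all of the last in values near 0. For homozygous KO these were Btg2 (-0.020 with library totals alone, -0.016 with the wild types of 1 wt word), Mdm4 (-0.047 with library totals alone, -0.0057 with the wild types of 2 wt words), Dcxr (-0.060 with library totals alone, -0.22 with the animal-number block, -0.055 with 1 wt word, -0.15 to 0.22 with 1 library left out) and Rrm2b (0.036 with the animal-number block, 0.057 with 1 wt word, -0.12 to 0.041 with 1 library left out). For heterozygous KO they were Ephx1 (0.051 with Xist as a covariate, 0.085 with 2 wt words, -0.087 to 0.044 with 1 library left out) and Trp53 (0.013 with the animal-number block, 0.0048 with 2 wt words, -0.040 to 0.022 with 1 library left out). The cause was not tested. Counts limit Eda2r, Gdf15 and Ak1 most.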
